A study of Mus musculus with 38 samples.

Results

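The transcription factor genes Sox1, Sox3, Sox21, Sox4, Sox11 and Sox9 were followed through retinoic acid (RA) differentiation of mouse embryonic stem cells (mESCs). They were chosen by name from the neural (SoxB and SoxE) and SoxC groups, of which they are not all members. All 6 were listed in the bulk, SCRB-seq and SMART-seq2 tables, among 19 Sox genes and 23479 genes of the bulk table.

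Sox proteins bind DNA through the HMG box, a domain shared with the testis-determining factor Sry. In the developing nervous system the SoxB1 factors Sox1 and Sox3 mark and maintain dividing neural progenitors, and the SoxB2 factor Sox21 counteracts them. The SoxC factors Sox4 and Sox11 act in progenitors and in the onset of neuronal gene expression, and the SoxE factor Sox9 acts in glial precursors, neural crest and cartilage.

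All cells came from E14, a mouse ES cell line, grown without feeders in 2i/L, a medium with a MEK inhibitor at 1 µM, a GSK3 inhibitor at 3 µM and LIF at 1000 U/ml. Cells were then exposed to 0.25 µM RA in N2B27 basal medium for up to 96 h. Bulk libraries covered 2i/L (2 libraries), 9 times between 6 h and 96 h (1 library each), ectoderm-like cells (CD24+/PDGFRA-) and XEN-like cells (PDGFRA+/CD24-, named after extraembryonic endoderm) sorted at 96 h (2 biological replicates each), and gates sorted at 48 h and 72 h (1 library each). Sorted cells were also cultured in N2B27 with 20 ng/ml EGF and 10 ng/ml FGF2, the ectoderm-like cells for 5 passages on coated dishes and the XEN-like cells for 3 weeks as floating aggregates (1 library each). Single cells were profiled by SCRB-seq at 9 times and by SMART-seq2 at 0, 12, 24 and 48 h, with 1 culture a time. The 25 bulk libraries held between 1063830 and 2459483 unique molecular identifiers (UMIs, counted molecules), and levels are given as counts-per-million (CPM) of these. The median library held 1665383 UMIs. Intervals printed with levels and ratios of counts are exact 95% Poisson intervals or their exact counterpart for a ratio, and cover counting error only.

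The 72 bases at the start of the HMG box, the domain that the members share, are shown for each gene in the order of subgroups. They are coding sequence in the first exon of each gene in GENCODE M21 (GRCm38, the same assembly as mm10), 5′ to 3′ on the coding strand, with capitals at bases that differ from Sox1 at the same position.
Sox1, chr8:12396508-12396579, plus strand: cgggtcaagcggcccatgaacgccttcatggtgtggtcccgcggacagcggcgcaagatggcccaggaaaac
Sox3, chrX:60892933-60893004, minus strand: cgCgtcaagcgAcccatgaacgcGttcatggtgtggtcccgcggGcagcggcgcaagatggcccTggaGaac
Sox21, chr14:118235546-118235617, minus strand: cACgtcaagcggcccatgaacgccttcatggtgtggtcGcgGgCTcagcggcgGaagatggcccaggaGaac
Sox4, chr13:28952779-28952850, minus strand: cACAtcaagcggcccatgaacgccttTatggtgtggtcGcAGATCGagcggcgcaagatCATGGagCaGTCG
Sox11, chr12:27342196-27342267, minus strand: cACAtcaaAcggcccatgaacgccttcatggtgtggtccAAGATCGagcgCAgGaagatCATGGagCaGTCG
Sox9, chr11:112782894-112782965, plus strand: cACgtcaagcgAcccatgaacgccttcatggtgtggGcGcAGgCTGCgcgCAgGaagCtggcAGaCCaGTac
Sox1, Sox3, Sox21, Sox4 and Sox11 have 1 exon and Sox9 has 3. Over 79 codons of the box, Sox4 and Sox11 shared 89% of bases and Sox1 and Sox3 89.5%, against 67.9% between Sox1 and either SoxC gene. Sox1 and Sox21 shared 87.3%, so the box did not set SoxB2 clearly apart from SoxB1. Only 3 runs of 46 bases, the length of the SCRB-seq cDNA reads, were shared by any pair of the 6 transcripts. Few SCRB-seq or bulk reads could thus have been exchanged between members. Shared runs as short as the SMART-seq2 reads were not searched. The annotation places a sense-overlapping transcript at Sox1 and antisense non-coding transcripts at Sox21 and Sox4. None of these has a count of its own here, and the strand setting of the counting is not given in the sources used here, so their reads cannot be told apart from those of the member.

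In the bulk time course Sox4 passed the mESC level first, followed by Sox1, Sox11 and Sox9. Onset was set as the first time from which the lower counting limit stayed above the upper limits of both mESC libraries. It fell at 24 h for Sox4, 36 h for Sox1, 48 h for Sox11 and 60 h for Sox9. By this rule 4 of 6 members were above both mESC libraries at 96 h, against 19.6% of 10932 genes above them and 6.88% below. Sox3 passed first at 36 h but did not stay above the mESC limits, and Sox21 never passed. With 1 library a time the changes have no replicate check, and in bulk samples more cells with a transcript cannot be told apart from more transcript per cell. Against the mean of both mESC libraries with a 2-fold rule (a ratio of at least 2 whose interval excludes 1), onset moved to 24 h for Sox1, 12 h for Sox4 and Sox11, 48 h for Sox9 and 96 h for Sox3, so that the order of Sox1 and Sox11 turned. With mESC replicate 1 left out the onset of Sox1 was 24 h, and with replicate 2 left out that of Sox11 was 36 h.

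Sox1 had 0.437 and 0 CPM in the mESC libraries and 0, 1.32, 3.98, 10.9 and 22.4 CPM at 6, 12, 24, 36 and 48 h. It then had 10.8, 11.4, 14.5 and 10.2 CPM at 60, 72, 84 and 96 h. The 48 h value, from 55 UMIs, was the highest of the time course and 96 h was lower by 2.18-fold (95% interval 1.29 to 3.84). Most of that step lay between 48 h and 60 h (2.07-fold lower, 1.2 to 3.74), where 2.07% of 10363 genes were lower by the 2-fold rule and 2.02% higher, Sox9 among the latter (2.46-fold, 1.01 to 6.38). Sox3 ran alongside at lower counts, with 2.99, 5.45 and 6.91 CPM at 24, 36 and 48 h and 3.59 CPM (7 UMIs) at 96 h. Its fall between 48 h and 96 h, 1.93-fold (0.759 to 5.5), was within counting error.

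Sox21 had at most 8 UMIs a library up to 36 h, with overlapping intervals. It had 2.19 and 0.435 CPM in the mESC libraries, 3.91 CPM (8 UMIs) at 6 h, 0.498 and 0.605 CPM (1 UMI each) at 24 h and 36 h, and 7.32 CPM (18 UMIs) at 48 h. Between 36 h and 48 h it was 12.1-fold higher (1.91 to 504). From 60 h to 96 h it had between 3.63 and 5.99 CPM, and its limits overlapped those of the first mESC library.

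The SoxC pair parted after 48 h. Sox4 had 0 and 0.435 CPM in the mESC libraries, 9.96 and 12.1 CPM at 24 h and 36 h, and its highest level of 38.6 CPM (95 UMIs) at 48 h, followed by 27.6, 30.5, 25.4 and 24.6 CPM at the 4 later times. Sox11 had 0 and 1.31 CPM in the mESC libraries, no more than 4.84 CPM up to 36 h, 18.7 CPM at 48 h and then 22.8, 38.1, 43 and 38.4 CPM. From 48 h to 96 h Sox11 was 2.06-fold higher (1.41 to 3.03), while the ratio for Sox4 was 0.637 (0.44 to 0.91). These were 2 of the 3 members whose interval excluded 1 over that span. Sox1, lower, and Sox11, higher, also passed the 2-fold rule, against 6.89% of 10614 genes lower and 9.9% higher. Sox9 had between 0 and 0.605 CPM up to 36 h, 3.66 CPM at 48 h, a peak of 16.9 CPM (31 UMIs) at 72 h and 7.17 CPM at 96 h.

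Between 36 h and 48 h the step was shared, with Sox1, Sox21, Sox4 and Sox11 past the 2-fold rule (2.05, 12.1, 3.19 and 3.86-fold), against 9.13% of 10152 genes higher and 2.3% lower. Sox3 (1.27-fold, 0.535 to 3.23) and Sox9 (6.05-fold, 0.838 to 265) did not pass. The 48 h library was also the deepest of the series.

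**Figure D1:**
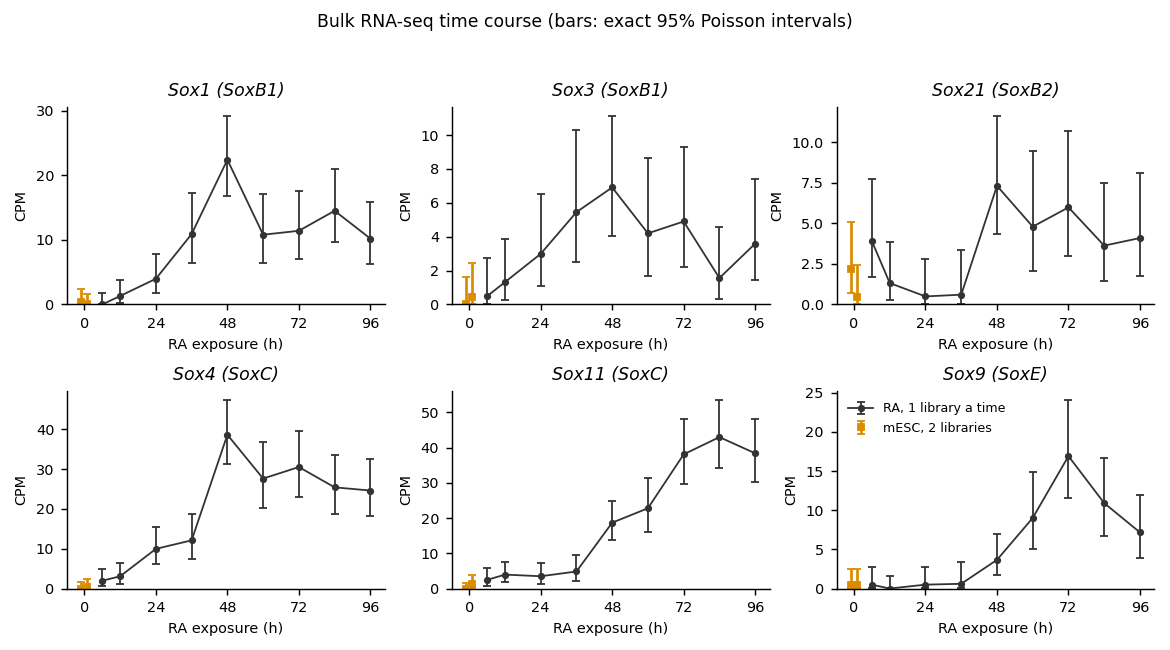
Bulk CPM of each member against hours of RA exposure, with 2 mESC libraries at 0 h (squares) and 1 library at each later time (circles); bars are exact 95% Poisson intervals. Sox1, Sox3, Sox21 and Sox4 are highest at 48 h, Sox9 at 72 h and Sox11 at 84 h.

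The promoters of the SoxC pair are shown because these genes share a subgroup, had their highest levels at different times and were measured under RA, whose receptors bind AGGTCA sites. The 250 bases before the RefSeq start (GRCm38.p6) are given 5′ to 3′ on the strand of the gene, with capitals at matches to any of 6 motifs searched on both strands.
Sox4, chr13:28953700-28953949, minus strand: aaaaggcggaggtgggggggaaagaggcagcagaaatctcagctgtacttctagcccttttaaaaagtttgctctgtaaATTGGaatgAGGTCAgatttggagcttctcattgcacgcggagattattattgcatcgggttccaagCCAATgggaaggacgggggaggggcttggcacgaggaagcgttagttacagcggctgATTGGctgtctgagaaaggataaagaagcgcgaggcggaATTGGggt
Sox11, chr12:27342719-27342968, minus strand: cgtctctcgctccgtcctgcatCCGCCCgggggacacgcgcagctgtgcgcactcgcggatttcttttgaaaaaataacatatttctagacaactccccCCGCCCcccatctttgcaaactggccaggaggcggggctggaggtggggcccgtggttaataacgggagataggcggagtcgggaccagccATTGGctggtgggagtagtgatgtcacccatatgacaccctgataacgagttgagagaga
RefSeq entries matched 4 of the 6 members (Sox1, Sox4, Sox11 and Sox21). AGGTCA was found once, in Sox4, with its first base 162 bases before the start, against 14% of 32851 promoters with a match. CCAAT matched at 4 places in Sox4, 1 in Sox11, 1 in Sox1 and none in Sox21 (33.8% of all promoters). GGGCGG matched at 2 places in Sox11 and 3 in Sox1 (32.7%). The Sox motifs ACAAAG (16.5%) and AACAAT (9.42%) and the TATA motif TATAAA (12.4%) were in none of the 4. A match here is a string of letters and no measurement of binding.

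Gates on CD24, a surface protein of neuroectodermal cells, showed how the members followed this marker among PDGFRA- cells. In the paper, high CD24 at 48 h marked cells that had become like post-implantation epiblast. At 48 h the cells were sorted into 4 quartiles of CD24 named Q1 (lowest) to Q4, and Cd24a mRNA had 19.4, 35.7, 60.2 and 127 CPM in them. Sox4 went with it, at 10, 15, 22.6 and 39.1 CPM from Q1 to Q4 (15, 21, 24 and 62 UMIs), and the intervals of Q1 and Q4 did not overlap. Sox1 had 5.35, 7.14, 11.3 and 13.3 CPM and Sox11 4.68, 5.71, 7.52 and 13.3 CPM. Q4 exceeded Q1 3.9-fold for Sox4 (2.19 to 7.39), 2.48-fold for Sox1 (1.05 to 6.47) and 2.83-fold for Sox11 (1.16 to 7.89). These 3 of 6 members passed the 2-fold rule, against 4.33% of 8980 genes higher and 3.36% lower. With TMM library sizes 2 passed, and Sox1 (2.33-fold) did not. Sox3 had 9 UMIs in both end quartiles (ratio 0.944, 0.332 to 2.68). Sox21, with 2 and 6 UMIs, and Sox9, with 0 and 2, were too few to tell. In the unsorted 48 h library Sox1, Sox21 and Sox11 stood at 22.4, 7.32 and 18.7 CPM, above each of the 4 gates. Each of these intervals overlapped that of Q4. Gapdh, a reference gene, had 2155 to 2675 CPM in the gates and 4027 CPM in the unsorted library. Summed pluripotency markers (12 genes) had 4292 to 6664 CPM in the gates and 3981 CPM in that library. The part of these shifts in the levels was not tested.

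At 72 h, over 3 CD24 terciles of PDGFRA- cells (T1 to T3), Sox9 joined the graded members. Cd24a had 49.7, 122 and 256 CPM. Sox11 had 7.77, 11.5 and 39.9 CPM, with T3 apart from T1 and T2, and Sox9 had 2.33, 7.94 and 13.8 CPM. Sox4 had 14, 32.6 and 38.4 CPM, and T2 and T3 did not differ beyond their intervals. Sox1 had 5.44, 8.82 and 16.1 CPM. The ratios of T3 to T1 were 5.14 for Sox11 (2.58 to 11.3), 5.93 for Sox9 (1.73 to 31.4), 2.74 for Sox4 (1.57 to 5) and 2.96 for Sox1 (1.21 to 8.25). Thus 4 of 6 passed the rule, against 3.58% of 8942 genes higher and 6.87% lower. Sox3 (4 and 7 UMIs) and Sox21 (1 and 3 UMIs) did not pass. Pluripotency markers had 4643, 1983 and 1314 CPM over the terciles, and the XEN markers (11 genes) 797, 473 and 356 CPM; their part in the member levels was not tested.

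In PDGFRA+/CD24- cells of the same time the members were at or near 0. Sox1, Sox3 and Sox9 had no UMI in this library, and Sox4, Sox11 and Sox21 had 2 each (1.47 CPM, 0.178 to 5.31). Against the 3 PDGFRA- terciles together, Sox4 was 19.2-fold lower (5.18 to 160) and Sox11 13.7-fold lower (3.66 to 115). By the lower limits of their exact intervals, Sox1 was at least 3.58-fold lower, Sox9 at least 2.79-fold and Sox3 at least 1.31-fold. These 5 of 6 passed the 2-fold rule, against 15.1% of 10457 genes lower and 7.72% higher. For Sox3 the fold is bounded only at 1.31. Sox21 stood at 1.47 against 1.61 CPM. The PDGFRA+/CD24- library held 7169 CPM of pluripotency markers and 4380 CPM of XEN markers, each above every PDGFRA- tercile. The part of these in the member levels was not tested.

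**Figure D2:**
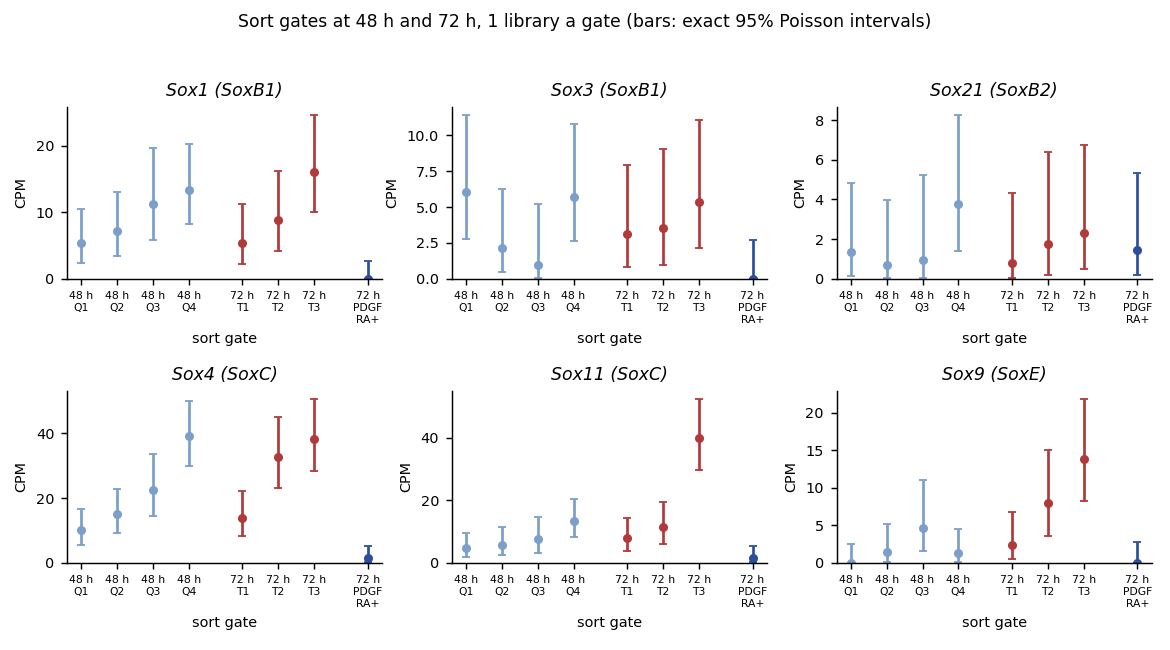
CPM of each member in the CD24 quartiles at 48 h (Q1 to Q4, PDGFRA-), the CD24 terciles at 72 h (T1 to T3, PDGFRA-) and the PDGFRA+/CD24- cells at 72 h, 1 library a gate; bars are exact 95% Poisson intervals. Sox4 and Sox11 climb with CD24 and drop to 1.47 CPM in PDGFRA+ cells.

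Cells sorted at 96 h allowed a test with replicates. Summed ectoderm markers (9 genes, members not among them) had 3180 and 2710 CPM in the ectoderm-like libraries and 607 and 321 CPM in the XEN-like ones, and XEN markers had 485 and 1779 against 12049 and 6664 CPM. The second ectoderm-like library thus held more XEN marker RNA (Pdgfra 36.8 against 3.33 CPM), and no XEN marker was at 0 in either. Pluripotency markers had 790 and 432 CPM in ectoderm-like, 6267 and 4524 CPM in XEN-like and 13436 and 18353 CPM in mESC libraries, and their part in the differences was not tested. Mesoderm markers (5 genes) summed to at most 3.65 CPM in the sorted libraries.

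Sox11 had 64.5 and 69.8 CPM in ectoderm-like cells and 3.05 and 1.82 CPM in XEN-like cells. Sox4 had 57.8 and 43.9 against 4.06 and 1.82 CPM. Sox1 had 26.1 and 22.6 CPM against 1 UMI in the first XEN-like library and none in the second. Both libraries of one side lay above both of the other for each of these genes. In edgeR's quasi-likelihood test with Benjamini-Hochberg adjustment, the log2 change from ectoderm-like to XEN-like cells was -4.59 for Sox11 (SE 0.54, adjusted p = 8.80e-04) and -3.89 for Sox4 (SE 0.48, adjusted p = 0.00114). Sox1 passed with an adjusted p of 0.00136 in the edgeR test, and its summed counts of 1 and 82 UMIs gave a level 75.1-fold lower (13.1 to 3003).

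Sox3 had 7.23 and 9.69 CPM in ectoderm-like cells and no UMI in either XEN-like library (edgeR adjusted p = 0.00984). By summed counts Sox3 was at least 6.51-fold lower in XEN-like cells, the lower limit of its exact interval. Sox9 had 13.9 and 10.3 against 2.03 and 1.82 CPM, a log2 change of -2.51 (SE 0.60, edgeR adjusted p = 0.0181). Sox21 had 7.23 and 12.3 against 3.05 and 1.82 CPM and did not pass (log2 change -1.81, SE 0.69, edgeR adjusted p = 0.115). In all, 5 of 6 members fell, against 5.74% of 8947 genes tested that fell and 6.99% that rose. Leaving out any 1 of the 4 libraries took the calls of Sox3 (adjusted p 0.0662 to 0.141 in the 3 fits that tested it) and Sox9 (0.0907 to 0.257) and kept 3 members called, and DESeq2 gave Sox9 an adjusted p of 0.158. Without XEN-like replicate 1 the log2 change of Sox4 was -4.50 and that of Sox1, then without a UMI in XEN-like cells, -8.29.

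Against mESCs, all 6 members were higher in ectoderm-like cells (edgeR), against 9.85% of 8947 genes higher and 9.3% lower. The mESC libraries held 1 UMI of Sox4, Sox1 and Sox3, 2 of Sox9, 3 of Sox11 and 6 of Sox21 in all. Sox4 was 236-fold higher by summed counts (41.7 to 9356, edgeR adjusted p = 3.89e-05), Sox1 112-fold (19.6 to 4488, 2.92e-04), Sox11 102-fold (34.5 to 500, 5.82e-05), Sox3 38.3-fold (6.34 to 1568, 0.00714), Sox9 28.1-fold (7.29 to 240, 0.00149) and Sox21 7.3-fold (3.01 to 21.4, 0.0275). The calls of Sox3 and Sox21 were lost under DESeq2 (adjusted p 0.0673 and 0.128) and without either ectoderm-like library, except that Sox3 fell out of the fit without the second. They were also lost without mESC replicate 1 for Sox3 (0.0755) and replicate 2 for Sox21 (0.171), and Sox21 was lost with the replicate number as a block (0.0911). The sizes rest on single mESC libraries, since the 3 Sox11 UMIs and the 1 Sox4 UMI were in replicate 2 and the 1 Sox1 UMI in replicate 1. Without replicate 1 and without replicate 2 the fitted log2 change was 5.26 and 9.77 for Sox11, 6.32 and 9.37 for Sox4, 8.30 and 5.32 for Sox1, and, for Sox21, 3.94 and 1.83. For Sox3 it was 3.74 and 6.79. A fitted change against a library without a UMI depends on the prior count and is no bound.

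In XEN-like cells against mESCs only Sox4 passed (log2 change 3.31, SE 0.97, edgeR adjusted p = 0.0294; 12.3% of 8947 genes rose and 10.5% fell), from 10 UMIs against 1. Its call was lost without mESC replicate 1 (adjusted p = 0.134), without XEN-like replicate 1 (0.244) and under DESeq2 (0.109), and Sox11 (log2 change 1.65, SE 0.92, edgeR adjusted p = 0.223) was called without mESC replicate 2. Sox1, Sox3, Sox21 and Sox9 had edgeR adjusted p values between 0.195 and 0.92.

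Other genes of the neural programme showed where the members stood. Of 18 neural progenitor genes 10 were tested and 9 fell in XEN-like against ectoderm-like cells, with a median log2 change of -3.89 against -0.06 over all genes tested (edgeR). Pax6, an eye and forebrain regulator that is also 1 of the 9 ectoderm markers, had 46.7 and 21.3 CPM in ectoderm-like cells and 0 in both XEN-like libraries. The POU factor gene Pou3f2 (7.23 and 18.1 CPM) and the Notch effector Hes5 (9.45 and 7.11 CPM) were likewise at 0 there. Cdh2, encoding N-cadherin, had 87.3 and 73.7 against 1.52 and 0 CPM. Of 12 genes listed for neuronal differentiation only 3 were tested and 1 fell, Tead2 (log2 change -2.10, SE 0.43, edgeR adjusted p = 0.00906), a factor of the Hippo pathway that is not particular to neurons. The median of the 3 was -0.65.

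Of 15 neural crest and cartilage genes 6 were tested, with 3 lower and 1 higher in XEN-like cells and a median of -0.98. Ednrb, an endothelin receptor of neural crest, had 127 and 116 against 1.02 and 0 CPM. The cartilage collagen Col2a1 had 17.2 and 11.6 against 0.508 and 0 CPM, and Twist1 17.8 and 10.3 against 2.03 and 0 CPM. Snai1, a repressor of E-cadherin, was higher in XEN-like cells, at 17.3 and 9.11 against 0 and 2.58 CPM.

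Of 13 other Sox genes 5 were tested, with 3 lower and 2 higher in XEN-like cells and a median of -2.50. Sox2, the SoxB1 factor of pluripotent and neural cells, had 85.7 and 131 CPM in mESCs, 55 and 50.4 CPM in ectoderm-like and 1.52 and 3.65 CPM in XEN-like cells (log2 change -4.37, SE 0.51, edgeR adjusted p = 8.43e-04). Sox12, also a SoxC gene, had 16.7 and 11.6 against 2.03 and 2.73 CPM. Sox6 had 8.34 and 6.46 against 0.508 and 0 CPM. The endodermal Sox7 ran the other way, with 0.556 and 3.88 CPM in ectoderm-like and 48.2 and 29.2 CPM in XEN-like cells (log2 change 4.25, SE 0.63, edgeR adjusted p = 0.00206).

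The ectoderm-like culture kept some members and lost others, while in the XEN-like culture no member was lower by the 2-fold rule. In the ectoderm-like culture Sox1, Sox3 and Sox21 had no UMI among 1868001. Against both sorted libraries summed, this was at least 12.1-fold lower for Sox1, at least 3.96-fold for Sox3 and at least 4.57-fold for Sox21. These are the lower limits of the exact intervals. Sox4 stayed high at 71.2 CPM (133 UMIs; ratio to sorted cells 1.39, 1.1 to 1.75), and Sox9 at 13.9 CPM (1.14, 0.667 to 1.9). Sox11 had 21.4 CPM (40 UMIs), 3.13-fold lower (2.22 to 4.49). Thus 4 of 6 were lower by the 2-fold rule, against 13.4% of 11138 genes lower and 16.9% higher, and none was higher. Sox2, at 1.07 CPM, and Cd24a, at 18.7 against 268 and 388 CPM in sorted cells, were low as well. Pax6 had 3.75 CPM, while Cdh2 had 46.6 and Twist1 41.2 CPM. Summed ectoderm markers had 1632 CPM in this culture. XEN markers summed to 2235 CPM, of which Sparc gave 1861 CPM. Col4a1 had 165 CPM (61.7 and 158 CPM in sorted ectoderm-like cells) and Col4a2 63.7 CPM (22.2 and 52.3 CPM). Lamb1, Lamc1, Pdgfra and Dab2 had 62.1, 33.7, 23 and 14.5 CPM, while Sox17, Gata6, Gata4 and Lama1 had between 0.535 and 4.28 CPM.

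In the XEN-like culture Sox21 had 66.2 CPM (96 UMIs), its highest level in any of the 25 libraries, against 3.05 and 1.82 CPM in sorted XEN-like cells. The ratio was 25.4 (12.4 to 60.5). Sox4 had 20.7 CPM (6.35-fold higher, 3.02 to 14.5, and 11.4-fold without sorted XEN-like replicate 1) and Sox11 15.2 CPM (5.82-fold higher, 2.49 to 15.1). These 3 of 6 passed the rule, against 23.6% of 10480 genes higher and 15.1% lower. Sox1 and Sox3 had no UMI and Sox9 had 3 (2.07 CPM). Cd24a stood at 421 CPM against 9.14 and 14.6 CPM in sorted XEN-like cells, and the ectoderm marker Fabp5 at 966 against 56.4 and 51 CPM. These genes made up most of the summed ectoderm markers (1537 CPM). Prtg (3.45 against 38.6 and 29.2 CPM), Mdk (98 against 429 and 166 CPM), Meis1, Hoxb2, Crabp1 and Nes were below both sorted libraries. The gap was small for Meis1 (35.2 against 53.3 and 38.3 CPM), Crabp1 (10.3 against 13.7 and 14.6 CPM) and Nes (1.38 against 2.03 and 2.73 CPM). XEN markers summed to 10097 CPM, of which Sparc gave 5888 CPM. Dab2 (140 against 1263 and 950 CPM) and Pdgfra (34.5 against 144 and 143 CPM) were below both sorted XEN-like libraries. Sparc, Col4a1, Col4a2, Gata4 and Sox17 were above both, Col4a1 only just (1219 against 1208 and 236 CPM). The part of these in the member levels was not tested.

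Between the cultures, Sox4 was 3.44-fold (2.3 to 5.3) and Sox9 6.73-fold (2.06 to 34.7) higher in the ectoderm-like one (21% of 10655 genes higher). Sox21 was lower there by at least 32.9-fold, the lower limit of its exact interval (20.3% of genes lower). Sox11 did not pass (1.41-fold, 0.819 to 2.49). Each culture is 1 library, so medium, time and growth as a layer or as aggregates cannot be told apart from lineage.

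**Figure D3:**
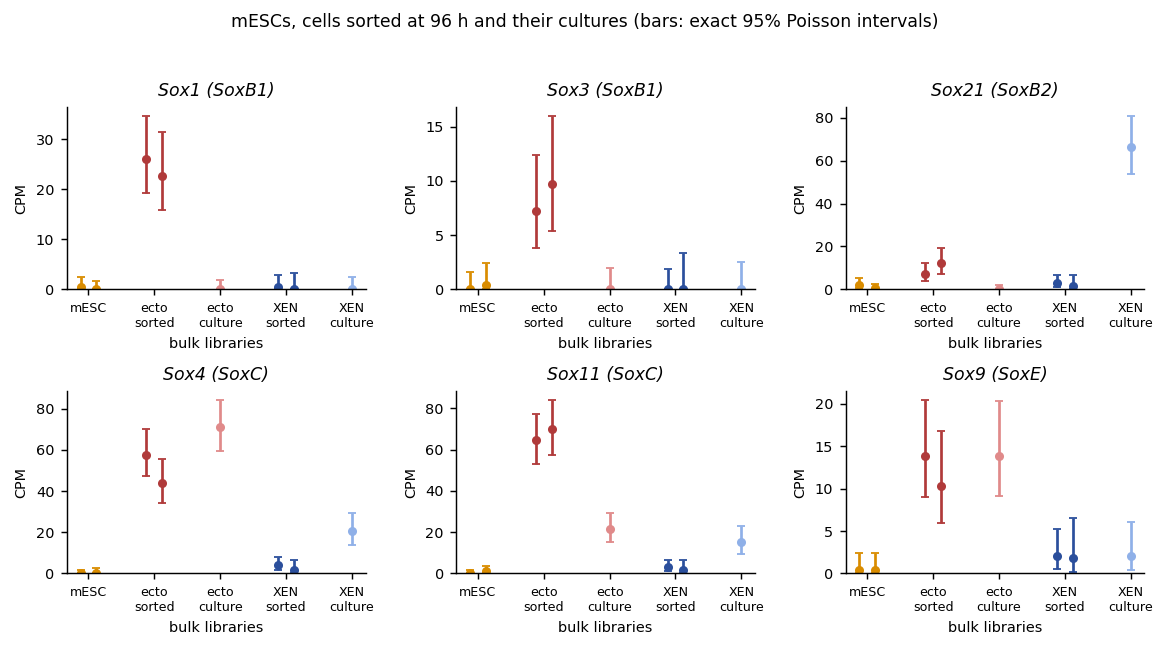
CPM of each member in mESCs, cells sorted at 96 h (2 libraries each) and 1 library of each culture; bars are exact 95% Poisson intervals. Sox1 and Sox3 are high in sorted ectoderm-like libraries alone, Sox4 and Sox9 remain in the ectoderm-like culture, and Sox21 reaches 66.2 CPM in the XEN-like culture.

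Over the 25 libraries the log2(CPM + 1) profiles of Sox1 and Sox3 correlated most (Pearson r 0.90), followed by Sox4 and Sox11 (0.89) and Sox11 and Sox9 (0.86). Sox21 had r between 0.14 and 0.46 with the other members. The libraries share cultures and sorts and these values are a description. Among 8052 genes with at least 250 UMIs, the 3 nearest in profile to Sox1 were the retinoic acid binding protein gene Crabp2 (0.93), Eno3 and Car3 (0.91 each). Those nearest to Sox3 were Sox1, Eno3 (0.86) and 2010001M06Rik (0.85). Sox4 was nearest to Sh3bgrl (0.93), Ndrg3 (0.92) and Zeb2 (0.91), and Sox11 to Sh3bgrl and Cdh2 (0.91 each) and Zfp608 (0.90). Sox9 was nearest to Zfp266 (0.91), Zfp608 and Map3k12 (0.90 each), and Sox21 to Cd2ap (0.82), Smek2 and Shroom3 (0.81 each).

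SCRB-seq, which counts UMIs in single sorted cells, gave the members' share of wells with a UMI, which is below the share of cells with the transcript. Of 3456 wells 2448 held more than 2000 UMIs, between 137 and 335 a time, with a median of 3559 to 5069 UMIs a well. The plates use the same 384 well names, and no well was identical between plates. Sox11 had a UMI in 3.19%, 6.27%, 5.96% and 2.07% of wells at 0, 6, 12 and 24 h, 17.4% at 36 h, 20.6% at 48 h, 28.9% at 60 h, 36.2% at 72 h and 36.5% at 96 h. Its level was 0.146 UMIs per 10000 at 12 h (0.0971 to 0.211), lower at 24 h (0.0392, 0.0144 to 0.0853), on the plate with the fewest UMIs a well, and 1.68 at 96 h (1.39 to 2). Sox1 had a UMI in 0.709% of wells at 0 h, 10.5% at 36 h, 25.6% at 48 h and 21.9% at 96 h. Its level was 0.893 per 10000 at 48 h (0.753 to 1.05), 0.657 at 60 h (0.541 to 0.79) and 0.626 at 72 h (0.498 to 0.778). At 96 h it was 0.881 (0.678 to 1.12). After 48 h SCRB-seq thus went down as bulk did, though the intervals at 60 h and 72 h overlapped that at 48 h. The lower bulk level at 96 h was not seen in SCRB-seq.

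Sox4 had no UMI among 282 wells at 0 h, which allows up to 1.06% of wells with a UMI at this depth and sets no limit on cells with the transcript. It had a UMI in 3.1%, 9.39% and 11.7% of wells at 24 h, 48 h and 96 h. Sox3 also had none at 0 h and was found in 9.03% of wells at 48 h and 10.2% at 96 h. With each well thinned to 2000 UMIs the 96 h shares were 20.4% for Sox11, 12.3% for Sox1, 5.69% for Sox4 and 4.45% for Sox3, against 0.496%, 0.532%, 0% and 0% at 0 h.

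Sox21 was in 8.51% of wells at 0 h (40 UMIs, 0.212 per 10000), 0.345% at 24 h (1 UMI) and 2.89% at 48 h, then in 11.7% at 60 h (52 UMIs, 0.302 per 10000) and 11.9% at 72 h, and in 3.65% at 96 h (5 UMIs). The intervals at 0 h (0.152 to 0.289) and 24 h (1.65e-04 to 0.0364) did not overlap, nor did those at 72 h (0.251 to 0.46) and 96 h (0.0223 to 0.161). In bulk 24 h and 36 h held 1 UMI of Sox21 each, as did the second mESC library. The intervals of both mESC libraries overlapped those at 24 h and 36 h, so bulk showed no fall from mESCs beyond counting error. The later high values began at 48 h in bulk. The drop at 96 h had no counterpart in bulk, with 5.99 CPM at 72 h, 4.1 CPM at 96 h and overlapping intervals. The 24 h plate, where Sox11 was low too, had a median of 3559 UMIs a well. Sox9 was scarce, with 0 UMIs at 0, 6 and 24 h, 16 UMIs in 12 wells at 12 h and 10 UMIs in 5 wells at 96 h. The 12 h value had no counterpart in the bulk library of that time, which held no Sox9 UMI.

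At 48 h, 220 of 277 wells were still closest to the mean 0 h profile, and these held 86.4% of all UMIs of that plate, 131 of 143 UMIs of Sox1 and 108 of 126 of Sox11. Sox11 stood at 0.781 per 10000 in them and 0.783 in the 53 wells closest to the 96 h ectoderm-like profile. Sox1 stood at 0.948 per 10000 in them (0.792 to 1.12) and at 0.49 (0.235 to 0.9) in those 53 wells. At 60 h and 72 h most wells (164 of 273 and 187 of 235) were closest to the ectoderm-like profile. The 24 wells closest to the XEN-like profile at 72 h held no UMI of Sox3, Sox21, Sox4 or Sox9, 1 of Sox1 and 6 of Sox11. For Sox11 that was 0.651 per 10000 (0.239 to 1.42), against 1.69 (1.45 to 1.94) in ectoderm-like wells.

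At 96 h, k-means clustering on 829 variable genes, none of them a member, gave clusters of 74 and 63 wells. All 9 ectoderm markers were higher in the larger and all 11 XEN markers in the smaller cluster, and these are called ectoderm-like and XEN-like here. Of these markers 4 and 8 were among the clustered genes. None was among the 10 genes with the largest fold of either cluster, which were led by Lbh, Gpr98 and Mpdz in the ectoderm-like and Rassf3, Gm6083 and Surf2 in the XEN-like cluster. XEN markers summed to 79.6 per 10000 UMIs among ectoderm-like wells and 198 among XEN-like wells. Sox11 had 2.7 per 10000 in ectoderm-like wells (39 of 74 wells with a UMI) against 0.453 per 10000 among XEN-like wells (11 of 63), a ratio of 5.96 (3.46 to 11). Sox1 had 50 and 14 UMIs (2.98, 1.62 to 5.84), Sox3 19 and 4 (3.97, 1.32 to 16) and Sox4 15 and 3 (4.18, 1.18 to 22.5). These 4 of 6 passed the 2-fold rule, against 10% of 7842 genes higher and 5.97% lower. Sox21 had 3 and 2 UMIs. Sox9, with 2 UMIs over ectoderm-like wells and 8 over the others (ratio 0.209, 0.0216 to 1.05), ran against the sorted libraries without passing the rule. Its 8 UMIs came from 3 wells. With wells of more than 4000 UMIs only, 2 members passed (Sox3 and Sox11), and Sox1 and Sox11 had ratios of 1.99 and 3.53. In wells thinned to 2000 UMIs, 3 passed, with Sox1 and Sox11 higher and Sox9 lower in ectoderm-like wells, and Sox3, Sox4 and Sox11 had ratios of 1.7, 2.13 and 3.94. Clustering on log2 values gave Sox11 a ratio of 3.83.

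Within ectoderm-like wells Sox1 and Sox11 were found together in 18 of 74, where 11.1 would be expected from their separate shares. Sox4 and Sox11 shared 10 wells against 6.85. Deeper wells hold more of every gene, so these counts are a description.

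**Figure D4:**
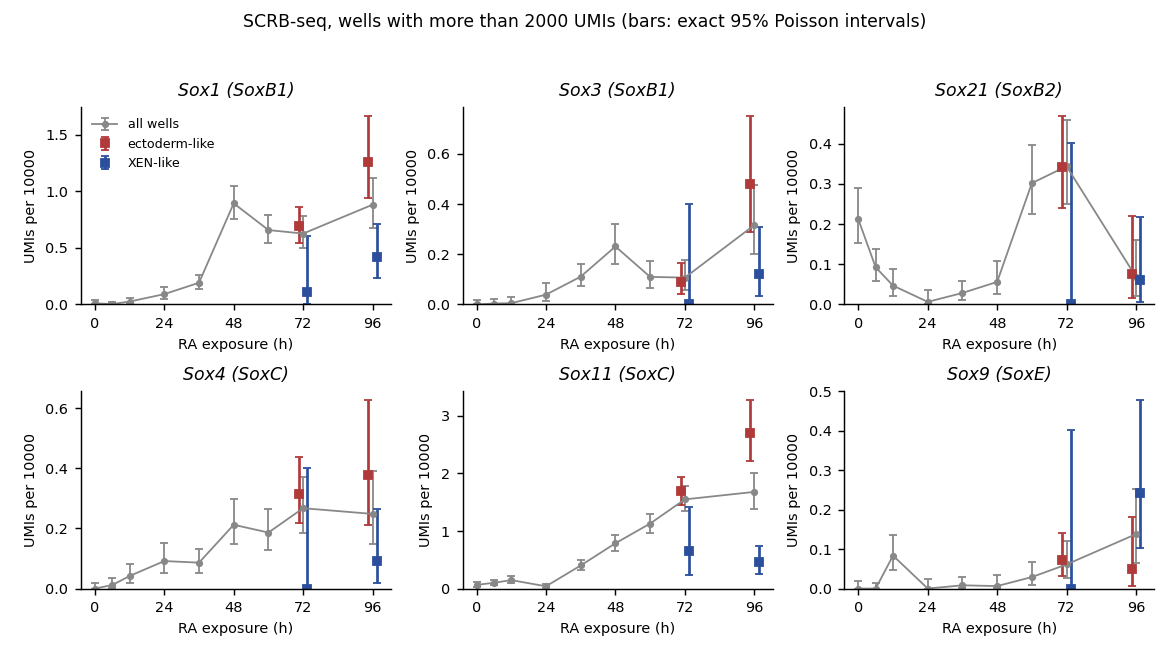
SCRB-seq UMIs per 10000 of each member against hours of RA exposure over all wells with more than 2000 UMIs (grey), and at 72 h and 96 h in ectoderm-like (red) and XEN-like (blue) wells; bars are exact 95% Poisson intervals. Sox11 reaches 2.7 in ectoderm-like wells at 96 h, and Sox21 dips at 24 h and again at 96 h.

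SMART-seq2, which covers whole transcripts, gave reads scaled to transcript length and read total (RPKM) in 82, 86, 89 and 82 cells at 0, 12, 24 and 48 h. A gene was counted as expressed above 1 RPKM after scaling each cell to the median total at 0 h. Sox4 was expressed in 12.2%, 12.8%, 29.2% and 78% of cells at the 4 times, with 64 of 82 cells at 48 h (exact binomial interval 67.5% to 86.4%). Sox11 was expressed in 14.6%, 27.9%, 37.1% and 64.6%, and Sox1 in 1.22%, 1.16%, 13.5% and 35.4%. Mean levels from 0 h to 48 h went from 5.01 to 29 RPKM for Sox4, from 3.87 to 24.7 for Sox11 and from 0.647 to 11.2 for Sox1. Sox9 was expressed in 11%, 23.3%, 14.6% and 34.1% of cells. Sox3 was expressed in between 3.49% and 4.49% of cells up to 24 h and 13.4% at 48 h, and Sox21 in 11%, 16.3%, 21.3% and 13.4%, whose intervals overlap. The drop of Sox21 at 24 h in SCRB-seq was thus not seen in these cells.

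At 48 h the 29 cells with the most Cd24a were set against the 10 with the most Pdgfra; 3 cells in both sets were left out. Summed ectoderm markers without Cd24a had medians of 2717 and 921 RPKM in the 26 and 7 remaining cells, and XEN markers without Pdgfra 231 and 801 RPKM. Sox4 was expressed in 23 of 26 Cd24a-high cells (88.5%, 69.8% to 97.6%) and 6 of 7 Pdgfra-high cells (85.7%, 42.1% to 99.6%), and Sox11 in 21 of 26 and 5 of 7. Sox9 was expressed in 13 of 26 and 1 of 7, Sox1 in 11 of 26 and 1 of 7, Sox21 in 6 of 26 and 1 of 7 and Sox3 in 3 of 26 and 1 of 7. The share was larger among Cd24a-high cells for 5 of 6 members, against 44.1% of 11582 genes, but all 6 pairs of intervals overlap. By mean level Sox4 was higher in Pdgfra-high cells (33.3 against 28.1 RPKM), and the other members were higher in Cd24a-high cells. With the 20 and 5 most extreme cells only 2 members, Sox21 and Sox9, were in a larger share of the Cd24a-high cells.

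Of the 82 cells at 48 h, 5 expressed no member, 27 expressed 2 and 3 expressed 5. Sox4 and Sox11 were expressed together in 49 cells, where 41.4 would be expected from their separate shares, and Sox1 and Sox4 in 27 against 22.6. Sox1 and Sox9 shared 8 cells against 9.9. The cells come from 1 culture and carry no test.

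**Figure D5:**
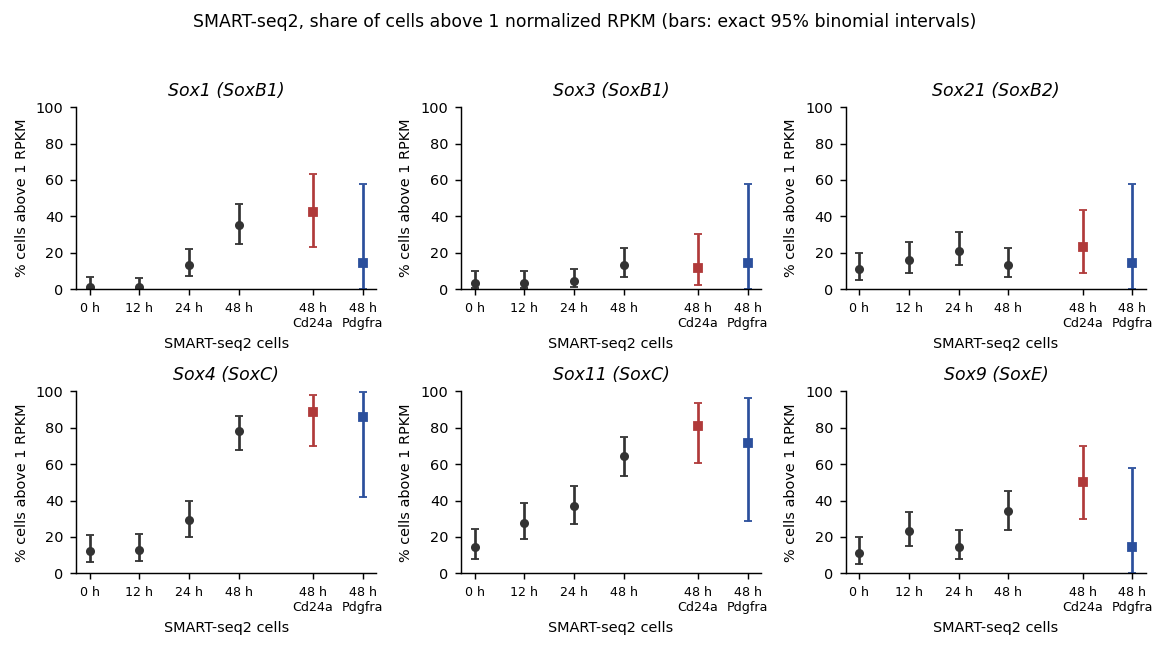
Share of SMART-seq2 cells above 1 normalized RPKM for each member at 4 times (black) and, at 48 h, among Cd24a-high (red, 26 cells) and Pdgfra-high (blue, 7 cells) cells; bars are exact 95% binomial intervals. Sox4 goes from 12.2% to 78% of cells between 0 h and 48 h.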

How the data were processed

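Bulk and SCRB-seq values are UMI counts that the authors made with bwa on mouse RefSeq mRNAs (mm10), collapsing reads by gene, barcode and UMI. SMART-seq2 values are RPKM that the authors computed with the Tuxedo tools from TopHat alignments; entries with a decimal comma were read as numbers. The members and gene lists were chosen with earlier results of these data known. The 2 genes whose bulk counts hold damaged text, neither of them a member, were left out.

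Groups came from the sample labels. Replicated groups were tested with edgeR 4.0.16 (R 4.3.3; TMM, expression filter, quasi-likelihood F test, 6 libraries of mESC and sorted cells in 1 fit; DESeq2 1.42.0 as alternative) with Benjamini-Hochberg adjustment at 0.05. The study's methods call the replicates of mESCs and sorted cells biological, and p-values measure the spread between these libraries. Groups of 1 library were compared by the ratio of counts with its exact 95% interval, and the rule was a ratio of at least 2 with an interval that excludes 1; background shares are over genes with at least 10 counts in both groups together. For a count of 0 the bound on a ratio is the lower limit of its exact interval. For shares of wells a count of 0 was read against a floor of 3 counts. For Sox21 in the ectoderm-like culture the bound from this floor is given as well. In SCRB-seq, wells above 2000 UMIs at 96 h were clustered (k-means, 50 starts, 1 minus Pearson correlation) on the 5% of genes whose coefficient of variation lay farthest over a running mean (100 genes wide); other wells were classed by their highest correlation with the 0 h, ectoderm-like and XEN-like means. No doublet caller was run. Tests and clustering were checked on simulated data. Named genes outside the members were the up to 4 genes a list with the largest called log2 change between XEN-like and ectoderm-like cells, and the 3 nearest in profile to each member. The depth was 1063830 to 2459483 UMIs a bulk library; per the study's methods SMART-seq2 cells passed a minimum number of reads, and the reads of each cell are not used here.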

Additional observations from a re-analysis of the deposited data

Results flagged for a closer look

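Sox11 and Sox21 moved in opposite directions in the 2 cultures. Sox11 in the ectoderm-like culture was at 0.32 of its level in the sorted cells, and in the XEN-like culture at 5.82 times its sorted level. By summed counts Sox21 was at least 4.57-fold lower in the ectoderm-like culture, the lower limit of its exact interval. With its count of 0 read as a floor of 3 counts, the bound was 5.95-fold. In the XEN-like culture Sox21 was 25.4-fold higher. Each direction held against both sorted libraries taken alone. For Sox11 the ratios were 0.332 and 0.307 in the ectoderm-like culture and 4.98 and 8.32 in the XEN-like culture. For Sox21 they were 0 and 0 in the ectoderm-like culture and 21.7 and 36.3 in the XEN-like culture. No bound is given for Sox21 against either sorted ectoderm-like library alone. Each culture is 1 library and the difference between the lineages was not tested.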

How the results depend on the processing

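Of 58 recomputed counts of members, 47 stayed within 1.5 times the count reported, and of 294 recomputed values of single members 266 kept their direction and call or stayed within error; the cause of the other changes was not tested. Under DESeq2, and in a fit of only the 4 libraries compared, 0 members were called between XEN-like cells and mESCs, against 1. Leaving out 1 library gave 0 to 2 calls there, 3 in every case between XEN-like and ectoderm-like cells (5 with all libraries), and 4 to 5 between ectoderm-like cells and mESCs (6). Sox1 between XEN-like cells and mESCs, not called in any fit, turned from a log2 change of 0.26 to -0.55 without mESC replicate 2, and ranged from -2.15 (without XEN-like replicate 1) to 2.43 when 1 library was left out. Over all genes, leaving out 1 library moved the calls from 1139 to between 269 and 670, from 1713 to between 885 and 1351, and from 2042 to between 1270 and 1663 for these comparisons in the order XEN-like against ectoderm-like, ectoderm-like against mESC and XEN-like against mESC. Scaling by library totals shifted the median log2 change of ectoderm-like cells against mESCs from 0.05 to 0.36 and the split of calls from 881 higher and 832 lower to 1366 and 589, and that of XEN-like cells from 1103 and 939 to 1339 and 703; the members' calls stayed. With wells of more than 4000 UMIs, 2 members passed between SCRB-seq clusters at 96 h (4 with all wells), and with the 20 and 5 most extreme SMART-seq2 cells 2 members were in more Cd24a-high cells (5 otherwise). No member was among the clustered genes, and clustering on log2 values moved 29 of 137 wells.

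Sorted ectoderm-like and XEN-like libraries share replicate numbers that the labels tie to no common culture. Deviations of same-numbered libraries correlated at 0.333 over 2 pairs, and with a replicate block 5, 5 and 1 members were called (XEN-like against ectoderm-like, ectoderm-like against mESC, XEN-like against mESC); Sox21 against mESC in ectoderm-like cells was the 1 call that changed (adjusted p = 0.0911, edgeR). The block turned 1139 calls over all genes between XEN-like and ectoderm-like cells into 1341. Counts under 10 UMIs, most values of Sox3, Sox21 and Sox9 in mESCs, gates and XEN-like cells, limit what these libraries can show.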

Other observations

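Of the Sox genes that were no members, a few stood out in 1 culture. Sox5, a SoxD gene, had 19.3 CPM in the XEN-like culture, no UMI in either sorted XEN-like library and 2.78 and 2.58 CPM in sorted ectoderm-like cells. Sox8, a SoxE gene like Sox9, had 0 and 0.646 CPM in sorted ectoderm-like cells, against 8.57 CPM once these were cultured. Sox7 was at 0.69 CPM in the XEN-like culture against 48.2 and 29.2 CPM in sorted XEN-like cells, while Sox17, also endodermal, was at 174 against 150 and 118 CPM. These genes were chosen after their values were seen, and each culture is 1 library.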
